A study of Homo sapiens with 2 samples.

Results

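The miR-183, miR-96 and miR-182 cluster is a group of 3 microRNA (miRNA) hairpins on human chromosome 7, and its members here were the mature products miR-183-5p, miR-96-5p and miR-182-5p. They were picked out by name, and that they did not move together in these data was known when the cluster was chosen. The members make up 3 of the 1178 entries with miRNA names in the authors' deposited table. Small RNA was sequenced from UM-SCC6, an established human line of oral squamous cell carcinoma, in 2 cultures. The parental UM-SCC6 culture had no selection. UM-SCC6-M was derived from it by harvesting, in 3 rounds, the cells that had invaded farthest in a microfluidic chip, and the labels call it highly invasive with some mesenchymal traits. Both are cultures of the same line, no drug or genetic change is named for either, and no parallel control selection is among the samples analysed here. With a single library from each culture there are no replicates, and the conditions were not tested against each other.

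miRNAs are short RNAs that guide Argonaute proteins to messenger RNAs, which they recognise mainly through the seed, bases 2 to 8 counted from the 5′ end. Each hairpin can give a product from its 5p arm and one from its 3p arm. The hairpins of this cluster are known to be made from a shared primary transcript. They are best known from hair cells of the inner ear, photoreceptors and other sensory cells, where seed mutations of miR-96 cause inherited hearing loss, and they are expressed in many carcinomas. Reported targets include the transcription factor FOXO1 for all 3 members and the membrane linker protein ezrin for miR-183.

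The mature sequences are shown with the seed in capitals, 5′ to 3′, because the members differ by single bases there. They are RefSeq sequences (GRCh38.p14), and all 6 arm products and miR-1271-5p were matched by name.
miR-183-5p: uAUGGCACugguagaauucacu
miR-96-5p: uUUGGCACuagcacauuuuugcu
miR-182-5p: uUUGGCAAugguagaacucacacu
miR-1271-5p: cUUGGCACcuagcaagcacuca
With positions counted from the 5′ end, the seeds of miR-96-5p and miR-182-5p differ by C8A, those of miR-96-5p and miR-183-5p by U2A, and those of miR-182-5p and miR-183-5p by U2A and A8C. No full seed is therefore shared among the members. miR-96-5p and miR-182-5p share bases 2 to 7 (UUGGCA), which among 2370 human mature miRNAs in the table occur there only in these and in miR-1271-5p, 0.127% of them. miR-1271-5p, from chromosome 5, is the only other miRNA with the whole seed of miR-96-5p. Over the whole length, seed included, the closest pair is another one. miR-182-5p and miR-183-5p match at 18 of 22 positions and share the run UGGUAGAA (bases 9 to 16), whereas miR-96-5p matches miR-182-5p at 12 of 23 positions and miR-183-5p at 13 of 22.

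The hairpins of miR-96 and miR-182 are shown with the 5p and 3p products in capitals, since the arms are compared further on.
MIR96: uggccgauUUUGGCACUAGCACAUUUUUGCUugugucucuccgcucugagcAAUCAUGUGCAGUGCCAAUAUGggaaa
MIR182: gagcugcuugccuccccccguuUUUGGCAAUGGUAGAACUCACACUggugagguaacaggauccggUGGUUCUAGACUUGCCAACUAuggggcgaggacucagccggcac
All 3 hairpins lie on the minus strand of chromosome 7 in GRCh38, in the order MIR183 (129774905 to 129775014), MIR96 (129774692 to 129774769) and MIR182 (129770383 to 129770492). MIR183 and MIR96 are 135 bases apart, and MIR182 follows 4199 bases downstream. In GENCODE release 29 no other annotated gene overlaps the 4632 bases they span, so they lie between genes. The nearest protein-coding genes are NRF1, 13.3 kb away, and UBE2H, 55.7 kb away. These positions come from the annotation. The build behind the authors' file is not given in the sources used here.

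Recovered reads numbered 7699225 (UM-SCC6-M) and 8182660 (parental) over 543 miRNAs whose reads could be recovered in both libraries. Levels are given as normalized reads, which carry the scaling of the authors, and every log2 ratio has UM-SCC6-M on top and the parental library below. Intervals are exact 95% intervals of counting error alone, because a single library per culture leaves no spread between replicates. They treat reads as independent, and since PCR copies are not independent molecules, they may be too narrow even for counting error. Of the epithelial miRNA markers, miR-200b-3p had 17481 normalized reads in UM-SCC6-M and 12823 in the parental culture, miR-200a-3p had 1344 and 2674, and miR-429 had 793.1 and 844.7, so they were read in both and did not differ in 1 direction. miR-200c-3p and miR-203a-3p were below 3 normalized reads, and miR-141-3p and miR-205-5p were not analysed here. The 4 stromal markers summed to 4.06 and 12.1 normalized reads, with miR-145-5p and miR-214-3p listed at 0 in both libraries, and the blood markers miR-142-3p and miR-451a were likewise listed at 0, that is below 1 normalized read, while miR-223-3p was not analysed here. The single neural or sensory marker with an entry, miR-9-5p, stood at 18.7 and 21.9.

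miR-96-5p was lower in the invasive culture, whereas miR-183-5p and miR-182-5p, read from hairpins on either side of it, differed from their parental levels by at most 1.06-fold under the scaling of the authors. miR-96-5p, the member whose seed is mutated in inherited deafness, had 1122 normalized reads in the parental culture, counted on 8446 reads, and 223.4 in UM-SCC6-M, counted on 1871 reads. It was 5.02-fold lower in UM-SCC6-M (4.78 to 5.28), a log2 ratio of -2.33 (-2.40 to -2.26). Its place in order of level moved from 62 in the parental library to 109 in UM-SCC6-M, among the 543 miRNAs.

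miR-183-5p, the first hairpin of the cluster, had 3282 normalized reads in UM-SCC6-M and 3316 in the parental library, on 27490 and 24954 reads. Its log2 ratio was -0.01 (-0.04 to 0.01), so that no difference was detectable beyond counting error under this scaling. It held place 33 in UM-SCC6-M and 34 in the parental library.

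miR-182-5p, the most abundant member, had 8016 normalized reads in UM-SCC6-M and 7528 in the parental library, on 67135 and 56654 reads. The log2 ratio was 0.09 (0.07 to 0.11), which exceeds counting error but amounts to 1.06-fold. It was at place 16 in UM-SCC6-M and 20 in the parental library. In both libraries the order of levels was miR-182-5p, miR-183-5p, miR-96-5p.

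**Figure D1:**
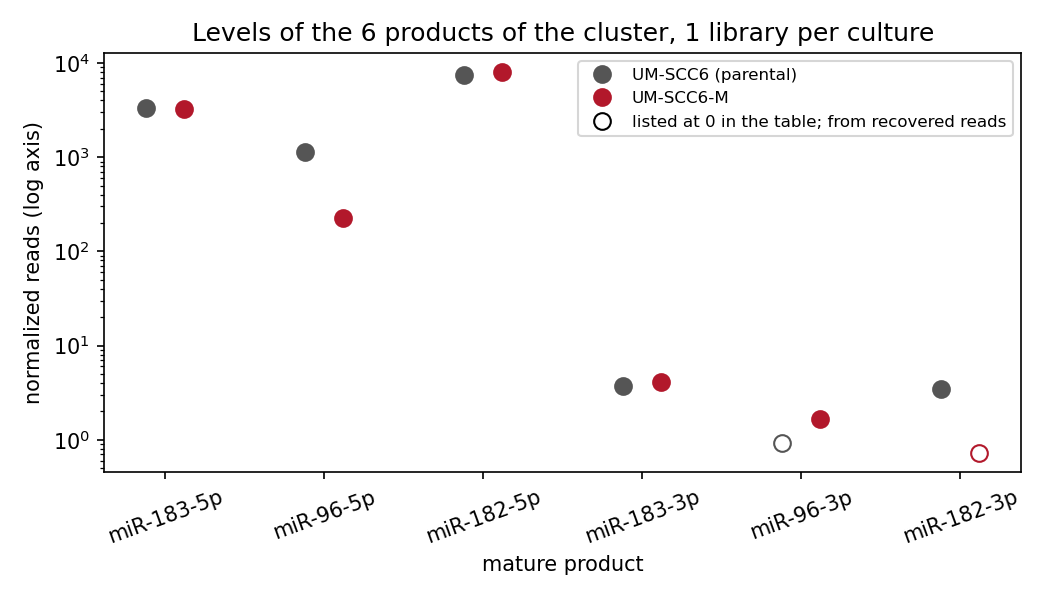
Normalized reads (log axis) of the 5p and 3p products of the 3 hairpins in the parental (grey) and UM-SCC6-M (red) libraries, 1 point per library, with open points for values listed at 0 and computed from recovered reads. The points of miR-96-5p are far apart (1122 and 223.4), those of miR-183-5p and miR-182-5p nearly level, and the 3p products all lie below 5.

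A difference was called by size, from 2-fold upward, where the higher library had 50 or more normalized reads (the floor). By this rule 1 of the 3 members was lower and 0 were higher. Among all 179 miRNAs at this floor 12.8% were lower by that much and 7.26% higher, 20.1% in all. With 1 member past the threshold, the count for the cluster says little beyond the value of miR-96-5p itself. That ratio was the 5th from the lowest of the 179, after miR-32-5p, miR-29b-3p, miR-7974 and miR-218-5p. The members were known not to move together when the cluster was chosen, so this place is a description and supports nothing. miR-183-5p and miR-182-5p were at places 86 and 97 from the lowest, near the median log2 ratio of 0.04.

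miRNAs of like abundance give a closer frame for each member. The place of miR-96-5p among them is likewise a description without a test, since the cluster was chosen with its unequal ratios known. Of the 34 other miRNAs within 2-fold of the parental level of miR-96-5p, 0 had a lower ratio than it, and the lowest was miR-455-5p at -1.99. At least 2-fold lower were 5 of those 34, with a median of -0.19. The miRNAs nearest to miR-96-5p in parental level were miR-425-5p (log2 ratio -0.61), miR-340-5p (0.11) and miR-17-5p (0.37). For miR-183-5p, 0 of 25 miRNAs of like level were 2-fold apart in either direction. For miR-182-5p, 1 of 21 was 2-fold lower, miR-148a-3p at -1.32, and 0 were 2-fold higher.

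**Figure D2:**
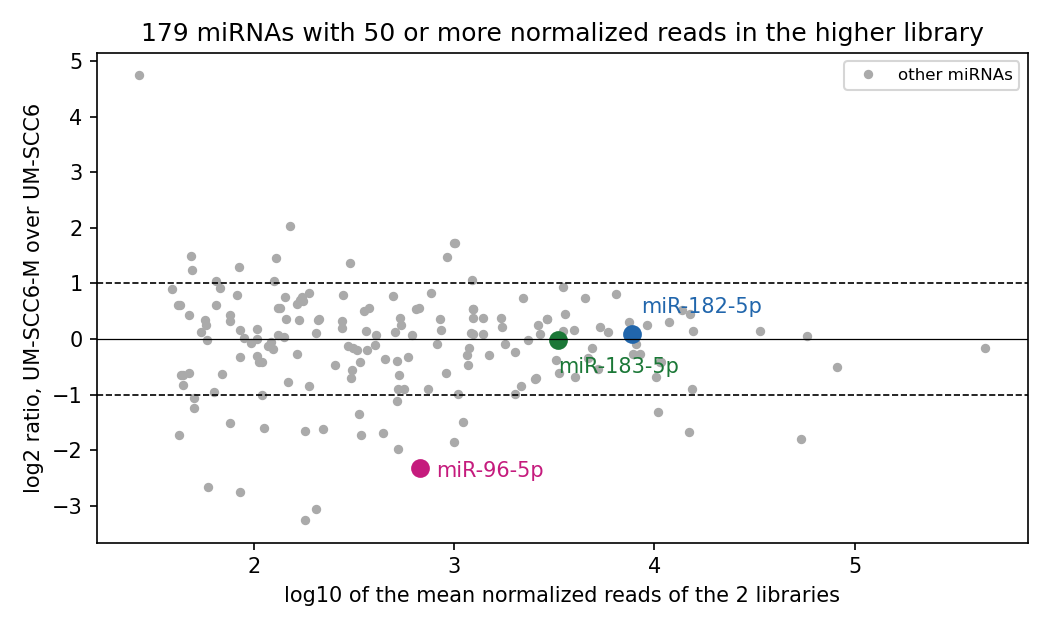
Log2 ratio (UM-SCC6-M over parental) against the log10 of the mean normalized reads for the 179 miRNAs at the floor, with dashed lines at 2-fold and the members in colour. miR-96-5p lies below the lower line at -2.33, while miR-183-5p and miR-182-5p lie on the zero line among miRNAs of higher level.

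With 2 libraries, likeness of pattern can be measured only by the ratio. The 3 miRNAs nearest to miR-96-5p in log2 ratio were miR-218-5p (-2.66), which the series title names, miR-455-5p (-1.99) and miR-7974 (-2.75). Of these, miR-455-5p was also near it in level, at 212.1 against 840.8 normalized reads. miR-218-5p was far less abundant, at 16 against 101.7. Nearest to miR-183-5p were miR-93-5p (-0.01), miR-590-3p (-0.02) and miR-320b (0.00), and nearest to miR-182-5p were miR-20a-5p, miR-30b-5p and miR-106b-3p, at 0.08 to 0.09.

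Ratios between members within a library do not depend on how the libraries are scaled. miR-183-5p had 2.95 reads per read of miR-96-5p in the parental library and 14.7 in UM-SCC6-M. miR-182-5p had 6.71 reads per read of miR-96-5p in the parental library and 35.9 in UM-SCC6-M. The log2 ratio of miR-96-5p minus that of miR-183-5p was -2.31 (-2.39 to -2.24), and minus that of miR-182-5p it was -2.42 (-2.49 to -2.35). The difference of miR-182-5p minus miR-183-5p was 0.11 (0.08 to 0.13), which is 1.08-fold. Reads per read are not molar ratios, because ligation favours some sequences, but a bias that is the same in both libraries cancels in these differences.

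As shares of the reads of the 3 members, miR-96-5p made up 9.38% of the parental reads (9.19 to 9.57) and 1.94% of the UM-SCC6-M reads (1.85 to 2.03). The share of miR-182-5p was 62.9% in the parental library (62.6 to 63.2) and 69.6% in UM-SCC6-M (69.3 to 69.9). miR-183-5p held 27.7% (27.4 to 28.0) and 28.5% (28.2 to 28.8). The makeup of the cluster's output differed mainly through the smaller part of miR-96-5p.

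**Figure D3:**
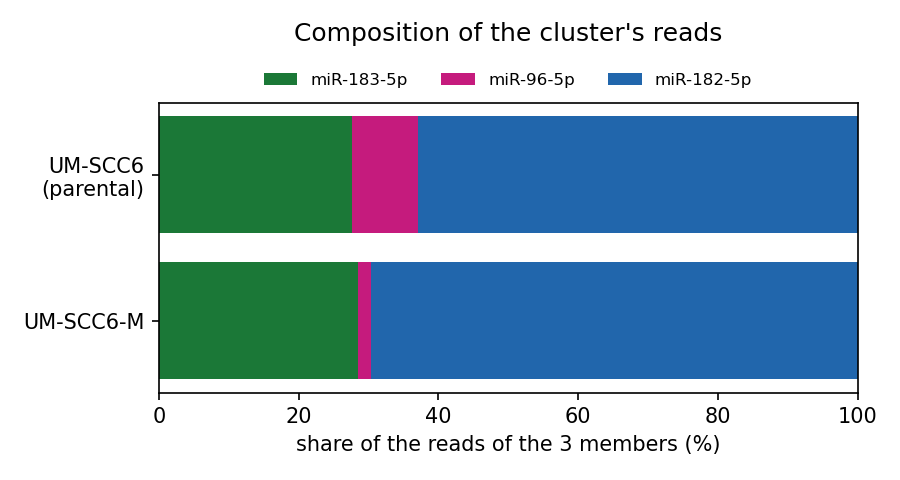
Share of each member in the reads of the 3 members (percent, horizontal axis), 1 bar per library. The miR-96-5p segment is 9.38% of the parental bar and 1.94% of the UM-SCC6-M bar, and the miR-183-5p segments are of similar width in both.

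The summed level of the cluster was 11522 normalized reads in UM-SCC6-M and 11967 in the parental library, a log2 ratio of -0.05 (-0.07 to -0.04). This sum turned to 0.19 with the libraries scaled to their total reads, so no direction is given for it. miR-96-5p contributed a difference of -898.9 normalized reads, miR-182-5p one of 487.9 and miR-183-5p one of -33.5. Of the recovered miRNA reads, the cluster took up 1.10% in the parental culture and 1.25% in UM-SCC6-M.

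Grouped by seed, the full seed of miR-96-5p had no other listed carrier, since miR-1271-5p was listed at 0 in both libraries (values below 1 are listed so). The difference in reads with that seed was therefore the one of miR-96-5p, from 1122 to 223.4 normalized reads. For the shorter match at bases 2 to 7, miR-182-5p supplied most reads in both cultures. miR-96-5p was 13.0% of these reads in the parental library (12.7 to 13.2) and 2.71% in UM-SCC6-M (2.59 to 2.84). Together miR-96-5p and miR-182-5p had 8240 against 8651 normalized reads, a log2 ratio of -0.07 (-0.09 to -0.05).

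The 3p products are the arms of these hairpins that are mostly discarded, and they were rare in both libraries. miR-183-3p had 4.06 normalized reads in UM-SCC6-M and 3.72 in the parental library, on 34 and 28 reads. miR-96-3p had 1.67 in UM-SCC6-M and was listed at 0 in the parental library, where the deposited fold change gives 7 reads against 14. miR-182-3p was listed at 0 in UM-SCC6-M, with 6 reads recovered in the same way, and had 3.46 normalized reads in the parental library, on 26 reads. None of the 3 reached the floor of 50 normalized reads.

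In 2 of the 3 hairpins the arms did not differ between the libraries in the same way. For miR-96 only the 5p arm was clearly lower. Its 3p arm had a log2 ratio of 0.80 (-0.56 to 2.40), an interval that includes 0. The 5p arm had 1207 reads per 3p read in the parental library and 134 in UM-SCC6-M, a log2 change in the 5p to 3p balance of -3.13 (-4.73 to -1.77). The 3p share of miR-96 hairpin reads was 0.0828% in the parental library (0.0333 to 0.171) and 0.743% in UM-SCC6-M (0.407 to 1.24). For miR-182 the reverse was measured. miR-182-3p was 4.54-fold lower in UM-SCC6-M (1.94 to 14.3) while the 5p arm was nearly level, so the balance moved by 2.27 (1.05 to 3.93) toward the 5p arm. The 3p share of miR-182 hairpin reads was 0.0459% in the parental library (0.0300 to 0.0672) and 0.00894% in UM-SCC6-M (0.00328 to 0.0194). The balance of miR-183 changed by -0.14 (-0.92 to 0.62), which includes 0.

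**Figure D4:**
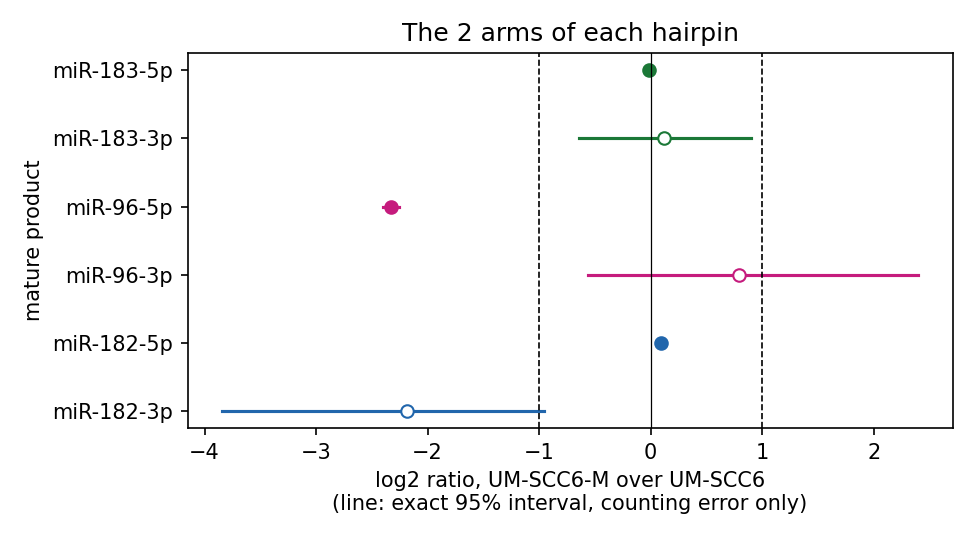
Log2 ratio (UM-SCC6-M over parental) of the 5p (filled) and 3p (open) product of each hairpin, with lines for the exact 95% interval of counting error and dashed lines at 2-fold. miR-96-5p and miR-182-3p lie at -2.33 and -2.18, the other 4 products between -0.01 and 0.80, and the 3p intervals are wide.

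Balances at least 2-fold apart were frequent among hairpins read at this depth. Of 93 hairpins with the more read arm at the floor and reads recovered for both arms, 28.0% had one in either direction, against 2 of the 3 hairpins here. In that set miR-96 had the lowest and miR-182 the highest change. Both extremes rest on 3p products with 6 to 26 reads, and their counting intervals are wide. The change of miR-96 also contains the ratio of its more read arm. That the members did not move together was known when the cluster was chosen. Its place and the count of 2 of the 3 hairpins are therefore descriptions without a test and support nothing.

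In the other miRNA clusters listed for comparison, the most read arm of each hairpin was used where it reached the floor. The log2 ratios of the members here spanned 2.42, from -2.33 to 0.09. The spans of 11 other clusters ran from 0.02 to 1.73 with a median of 0.71, and this was the widest of the 12. That its members did not move together was known when the cluster was chosen, so its place in this order is a description without a test and supports nothing. The next were the cluster of miR-23a, miR-27a and miR-24 (1.73) and the epithelial cluster of miR-200b, miR-200a and miR-429 (1.44). In the former miR-27a-3p was at -0.99 and miR-23a-3p at 0.74, and in the latter miR-200a-3p was at -0.99 and miR-200b-3p at 0.45. The cluster of miR-106b, miR-93 and miR-25, which also has 3 hairpins, spanned 0.14. miR-24-3p, miR-16-5p, miR-19b-3p and miR-92a-3p are each made from more than one locus, so their ratios do not belong to 1 cluster alone, whereas each member here is made from a single locus.

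**Figure D5:**
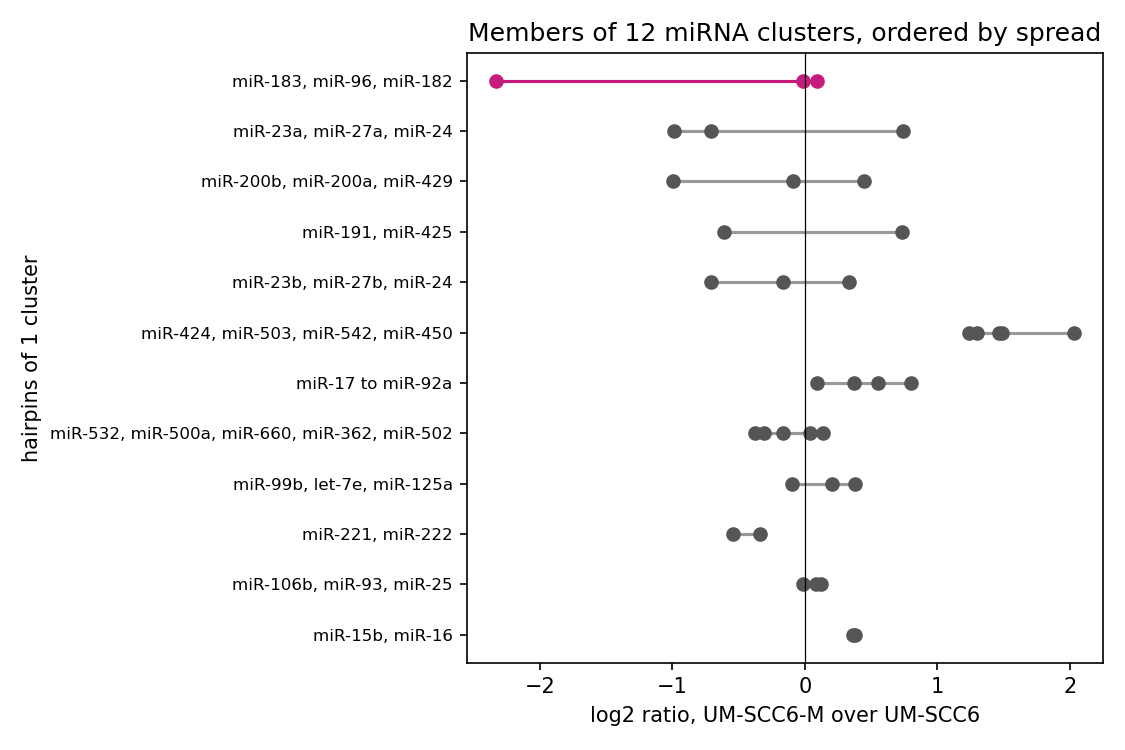
Log2 ratio (UM-SCC6-M over parental) of the most read arm of each hairpin at the floor, 1 row per cluster, ordered by the distance between the lowest and highest member. The row that holds miR-96 is widest at 2.42, with miR-96-5p alone at the low end.

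FOXO1, a transcription factor that restrains cell growth, is a reported target of several miRNAs beside these. Of the 9 names listed as repressing it, 6 reached the floor, with a median log2 ratio of -0.09 against 0.04 for all 179 miRNAs. At least 2-fold lower was 1 of the 6, miR-96-5p, and 0 were higher, beside 23 (12.8%) lower and 13 (7.26%) higher of the 179. Without the 3 members the other 3 had a median of -0.17. miR-27a-3p was lowest of these at -0.99 (-1.04 to -0.94), with 700.6 against 1391 normalized reads. miR-27b-3p had 4579 against 5135 (-0.17), and miR-186-5p 415.2 against 396.9 (0.06, with an interval of -0.01 to 0.14). Below the floor, miR-9-5p was at -0.23, miR-153-3p had 2 reads against 9 and miR-1271-5p was listed at 0. The median of the 6 turned to 0.15 with scaling to total reads, so it gives no direction.

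Base composition was compared after the values were seen. miR-96-5p has 10 uracils among its 23 bases, 43.5%, against 31.8% for miR-183-5p and 29.2% for miR-182-5p and a median of 27.3% over 158 miRNAs at the floor with a RefSeq sequence. Its G and C content of 39.1% is close to that of miR-183-5p (40.9%) and miR-182-5p (41.7%). Across the 158 miRNAs, which share the same 2 libraries, Spearman's rho between log2 ratio and G and C content was -0.03 and that with uracil content 0.05. The 20 other miRNAs within 2.5 percentage points of the G and C content of miR-96-5p had a median log2 ratio of 0.12. Of these 20, 4 were at least 2-fold lower, beside 12.8% of all 179 miRNAs at the floor, with or without a RefSeq sequence. No group of like uracil content was compared.

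In the authors' deposited table miR-96-5p has a log2 fold change of -2.3288 with a q-value of 9.15e-115 and is marked as selected. The same table gives miR-182-5p a q-value of 5.68e-46 and miR-183-5p one of 1.32e-09, at log2 fold changes of 0.090589 and -0.014662, and marks neither. A q-value under 0.01 is given to 133 of the 827 miRNAs with a fold change in the authors' deposited table. Of these 133, 89 are within 2-fold. Among the 827, 44 are marked, each with a log2 fold change of at least 1.0097 in size. Those q-values compare 2 libraries and carry no spread between cultures. The 3p products have q-values of 0.773 to 0.991 in the authors' deposited table.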

How the data were processed

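Small RNA libraries were prepared from 3 µg of total RNA by adaptor ligation, per the labels' protocols. The submitters' processing notes name Bowtie, while build, miRNA database release, counting and scaling tool are not given in the sources used here. Deposited signal values are reads multiplied by 1 factor per library, called normalized reads here. This was tested on the values, which were whole multiples of 0.119 (UM-SCC6-M) and 0.133 (parental) within 7.2e-05 reads, and values below 1 were listed as 0. Where 1 library was listed at 0, its reads came from the deposited log2 fold change (whole within 0.00023 reads). The deposited p-values and q-values are the authors' own and were only copied.

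Log2 ratios had 0.5 reads added per library. Ratio and share intervals are Clopper-Pearson, and differences between members or arms have exact conditional odds ratio intervals. The script was tested on simulated data with counting error only, which checks the code and not whether the intervals suit these libraries. Named miRNAs were the members, their 3p products, seed sharers, the listed miRNAs and, per member, the 3 nearest in ratio and in parental level. Others were named after their values were seen. Members, lists and rules were chosen with earlier results of these data known. Alternatives were other scalings, floors and added reads. Python 3.11.15, numpy 2.4.6, pandas 2.3.3, scipy 1.17.1 and matplotlib 3.10.9 were used.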

Additional observations from a re-analysis of the deposited data

How the results depend on the processing

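The log2 ratio of miR-96-5p stayed past 2-fold lower under every scaling tried, at -2.09 with total reads, -2.23 with the total without the 10 most abundant miRNAs, -2.30 with the median of ratios and -2.37 with the trimmed mean of M-values. miR-183-5p had 0.227, 0.0856, 0.0141 and -0.0584 under these 4 scalings in that order, miR-182-5p had 0.333, 0.191, 0.119 and 0.0469, and the summed level had 0.188, 0.0456, -0.0259 and -0.0983, so miR-183-5p and the sum kept no sign. Each scaling adds 1 constant to every ratio (0.24 for total reads), so shares and differences between members or arms do not move with it. Counts of miRNAs at least 2-fold lower were 23 of 179 in the report. With floors of 10, 200 and no normalized reads they were 45 of 288, 15 of 123 and 107 of 543. Those at least 2-fold higher were 13 in the report, and 21, 6 and 59 of the same totals with these floors. Scaling to total reads gave 22 higher. With 5 or 0 reads added, and with all products of the hairpins counted in the shares, values stayed inside their counting intervals, including the arm balances, an alternative added after seeing the data (miR-96 -2.83, miR-182 1.74 with 5 reads). Also added then, the FOXO1 list median was 0.15 with total reads and -0.17 at a floor of 10. No paired analysis was possible because each culture gave 1 library, and leaving out a replicate was not possible either. Depth limits the 3p products, with 6 to 34 reads each, and not the 5p products.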
